A study of Mus musculus with 30 samples.

Results

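Expression of 9 genes that report on DNA damage, p53 activity, and growth control in hepatocytes was followed in the livers of mice given perfluorooctane sulfonate (PFOS), a persistent perfluoroalkyl acid. The genes were Gadd45a, Gadd45b, Gadd45g, Cdkn1a, Mdm2, Myc, Ccnd1, Ccng1, and Btg2, and every probe set annotated to 1 of them alone was taken, whatever its values. This gave 19 of the 45101 probe sets on the array, and 9 of the 12156 genes with a usable signal. Groups were PPARα-null mice (Null, strain 129S4/SvJae-Pparatm1Gonz/J) and wild-type mice (WT, strain 129S1/SvlmJ), dosed by gavage for 7 days with PFOS (as its potassium salt) at 3 or 10 mg/kg, or with vehicle alone (0 mg/kg). All animals were males of 6 to 9 months, 5 a group in 6 groups, and RNA of the left liver lobe of each mouse was run on its own Affymetrix mouse array. Null mice lack PPARα in every tissue, and since the strains also differ in substrain, genotype and substrain cannot be told apart.

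PPARα is a nuclear receptor of hepatocytes that is activated by fatty acids and by compounds such as PFOS, and in mice its activators enlarge the liver and drive hepatocytes to divide. CAR, a second receptor of hepatocytes that responds to foreign compounds, also promotes liver growth, and Gadd45b is a well known early target of CAR in mouse liver. The 3 Gadd45 proteins are small stress sensors that bind cell cycle proteins and kinases of the p38 and JNK pathways. Cdkn1a encodes p21, an inhibitor of cyclin dependent kinases and the classical target of p53. Mdm2 encodes the ubiquitin ligase that degrades p53, and Mdm2, Ccng1 (cyclin G1), Gadd45a, and Btg2 (an antiproliferative cofactor) are all p53 targets. Ccnd1 (cyclin D1) moves quiescent hepatocytes into the cell cycle, and Myc is a transcription factor of growth and ribosome production. In whole liver RNA, a change in the share of a cell type and a change of RNA per cell cannot be told apart.

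Promoter sequence (RefSeq, GRCm38.p6) was read for 7 of the 9 genes, all but Myc and Ccnd1. The 250 bases before each transcription start are shown for the 3 Gadd45 genes, 1 of which changed with PFOS in both genotypes, and for the upstream start of Cdkn1a, the reference gene of the p53 pathway. Capitals mark the E-box (CACGTG), the CCAAT box (CCAAT), the TATA box (TATAAA), and the p53 decamer, each searched on both strands.
Gadd45b, chr10:80929841-80930090, + strand: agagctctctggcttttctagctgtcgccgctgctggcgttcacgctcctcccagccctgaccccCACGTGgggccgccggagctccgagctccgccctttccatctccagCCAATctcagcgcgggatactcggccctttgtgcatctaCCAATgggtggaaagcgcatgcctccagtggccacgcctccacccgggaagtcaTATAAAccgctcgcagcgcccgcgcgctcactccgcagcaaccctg
Gadd45g, chr13:51846425-51846674, + strand: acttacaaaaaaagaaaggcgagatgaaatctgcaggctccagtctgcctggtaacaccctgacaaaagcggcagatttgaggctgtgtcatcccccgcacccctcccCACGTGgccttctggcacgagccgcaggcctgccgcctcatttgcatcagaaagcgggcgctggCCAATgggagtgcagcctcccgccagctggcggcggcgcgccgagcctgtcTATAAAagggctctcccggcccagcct
Gadd45a, chr6:67037408-67037657, - strand: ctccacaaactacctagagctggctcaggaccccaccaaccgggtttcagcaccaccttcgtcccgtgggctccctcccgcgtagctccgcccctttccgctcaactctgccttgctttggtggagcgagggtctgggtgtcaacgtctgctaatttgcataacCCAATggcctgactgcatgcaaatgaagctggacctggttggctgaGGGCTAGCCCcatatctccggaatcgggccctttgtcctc
Cdkn1a, chr17:29090729-29090978, + strand: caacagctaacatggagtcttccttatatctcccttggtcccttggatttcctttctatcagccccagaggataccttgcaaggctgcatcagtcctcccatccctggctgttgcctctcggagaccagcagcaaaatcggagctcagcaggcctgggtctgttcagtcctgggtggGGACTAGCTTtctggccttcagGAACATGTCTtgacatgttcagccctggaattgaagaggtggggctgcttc

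Gadd45b and Gadd45g were the 2 genes with an E-box, which 6.02% of 32851 promoter windows of this length hold, and also the 2 with a TATA box, held by 12.4%. The E-box of Gadd45b begins 185 bases before the start and that of Gadd45g 142 bases before it. Gadd45b has CCAAT boxes that begin 139 and 100 bases before the start, against 1 each in Gadd45g and Gadd45a, and 33.9% of all windows hold one. The p53 decamer was present in 4 of the 7 genes, Gadd45a, Cdkn1a, Mdm2, and Ccng1, against 7.13% of all windows. In Cdkn1a it occurs in separate copies that begin 73 and 51 bases before the upstream start, and no copy was matched before the downstream start. Btg2 was the 1 gene with a cAMP response element (TGACGTCA), held by 1.55% of windows, 166 bases before its start. GC boxes (GGGCGG) were present in 5 of the 7 genes and in 32.7% of windows, and are not marked. Of these motifs only GC boxes of Btg2 overlap one another. A match is a description of the letters and was not tested as a binding site.

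Values are deposited log2 expression values from Robust Multichip Average (RMA), where a difference of 1 is a 2-fold change, and levels of different probe sets are not set against each other. A probe set was kept if 5 or more of the 30 arrays exceeded the overall median (5.65), which left 24069 in all and 18 of the 19 probe sets of these genes. Mdm2 probe set 1457929_at, with a mean of 4.26, was not kept. A gene was called where limma gave a Benjamini-Hochberg adjusted p under 0.05 over all kept probe sets, with doses compared within each genotype. Labels were checked against Ppara, whose probe sets read 8.78 to 9.81 in Null arrays, against 9.93 to 10.77 in 13 of the 15 WT arrays. Position of these probe sets relative to the disrupted part of the gene was not checked. Replicates 4 and 5 of the group labeled WT 0 mg/kg went against their label, with 8.66 and 8.74, and Cyp2b10, the standard CAR target, read 13.04 and 12.99 in them, against 8.11 to 8.43 in replicates 1 to 3. These 2 arrays are therefore called doubted, and results that use WT controls are given with and without them. Null 10 mg/kg replicate 1 had the lowest agreement with its group (median r = 0.967, against 0.977 to 0.993 in the other 29 arrays). Hepatocyte markers were high in every array, with means of 13.08 to 13.51 over 9 measured genes.

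At 10 mg/kg, 1 of the 9 genes was called higher in Null livers (Gadd45b) and 3 in WT livers (Gadd45b, Ccnd1, and Ccng1), and no member was called lower in either genotype. Among all genes, 4.15% were called higher and 5.08% lower in Null livers at this dose, and 7.63% higher and 5.83% lower in WT livers. In Null livers at 3 mg/kg 1 gene, Ccnd1, was called higher, against a background of 2.05% higher and 3.2% lower. A count of 1 of 9 genes in Null livers is too small to be read against these shares. At 3 mg/kg, 0 of the 9 genes were called in WT livers by limma (1 at an unadjusted p under 0.05, Btg2, and 0 by the methods' t-test, the unmoderated test named by the study), where 0.239% of all genes were called higher and 0.00823% lower. The median change of the 9 genes at 10 mg/kg was 0.22 in Null livers and 0.58 in WT livers, beside medians near 0 over all genes (0.0032 in Null and -0.0039 in WT livers). At 3 mg/kg the medians were 0.23 in Null livers and 0.06 in WT livers. The 9 genes were chosen with earlier results of these data known, so their medians and counts are a description and not a test. Comparisons of both doses within a genotype share the same control arrays.

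**Figure D1:**
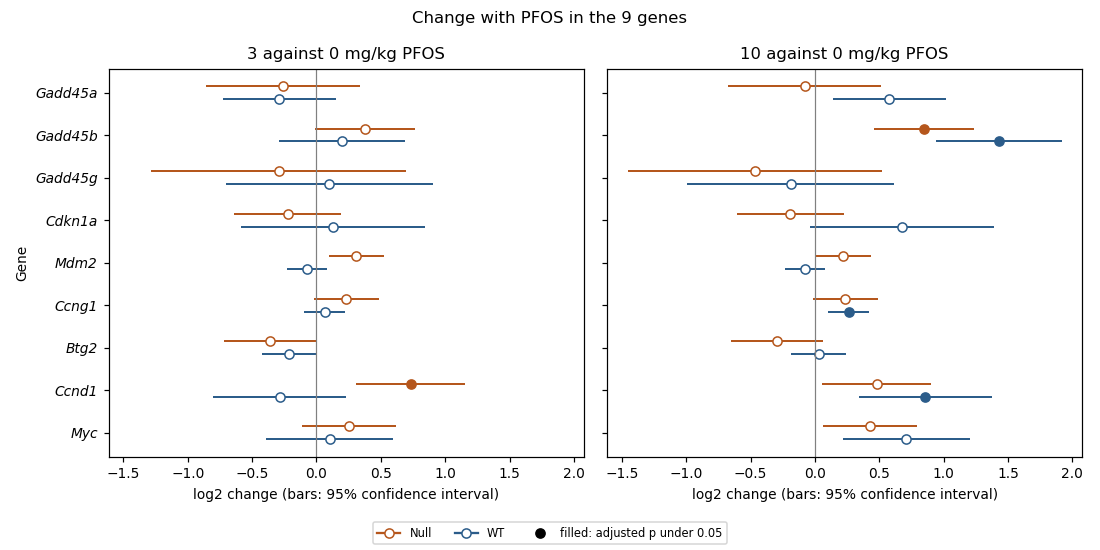
The log2 change (x axis) of each of the 9 genes (y axis, 1 probe set a gene) is plotted for 3 against 0 mg/kg on the left and 10 against 0 mg/kg on the right, in Null (orange) and WT (blue) livers, with 95% confidence intervals. Filled points have an adjusted p under 0.05: Ccnd1 in Null livers at 3 mg/kg, Gadd45b in both genotypes at 10 mg/kg, and Ccng1 and Ccnd1 in WT livers at 10 mg/kg.

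Between the doses, 10 against 3 mg/kg, 0 of the 9 genes were called by limma in Null livers, with 1 (Gadd45b) at an unadjusted p under 0.05 and 0 by the methods' t-test. Nor did any of the 12156 genes pass there (0% higher and 0% lower, with 1177 genes at an unadjusted p under 0.05). In WT livers 3 of the 9 genes were called higher (Gadd45a, Gadd45b, and Ccnd1), against 3.65% of all genes higher and 2.93% lower.

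Gadd45b had the largest change of the 9 genes at 10 mg/kg in both genotypes, 1.80-fold in Null livers and 2.69-fold in WT livers. On probe set 1449773_s_at, Null arrays (replicates 1 to 5) read 6.37, 6.17, 6.51, 6.02, and 5.79 at 0 mg/kg, then 6.34, 6.39, 6.73, 6.73, and 6.56 at 3 mg/kg, and 7.36, 7.48, 6.64, 6.49, and 7.13 at 10 mg/kg. WT arrays read 6.16, 6.25, 6.13, 7.53, and 6.91 at 0 mg/kg, then 6.66, 6.80, 6.65, 6.71, and 7.16 at 3 mg/kg, and 8.08, 8.44, 7.76, 8.01, and 7.82 at 10 mg/kg. Every WT array at 10 mg/kg lay above every WT control array, the doubted replicates 4 and 5 included, which were the highest controls. In Null livers the ranges touched, as replicate 4 at 10 mg/kg was just below the highest control, and replicates 3 and 4 were the low arrays of their group. Group means were 7.02 ± 0.44 in Null livers at 10 mg/kg and 6.17 ± 0.28 in Null controls, and 8.02 ± 0.27 in WT livers at 10 mg/kg and 6.60 ± 0.61 in WT controls (SD, n = 5 each). The log2 change was 0.85 (SE 0.181, adjusted p = 0.011) in Null livers and 1.43 (SE 0.227, adjusted p = 0.00133) in WT livers.

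A second probe set of Gadd45b, 1450971_at, gave the same picture with wider steps. At 10 mg/kg it read 7.87, 8.04, 6.90, 6.91, and 7.80 in Null livers, against 6.48, 6.13, 6.60, 6.33, and 6.02 in Null controls, and these groups did not overlap. In WT livers it read 8.72, 9.03, 8.20, 8.76, and 8.42 at 10 mg/kg, against 6.18, 6.48, 6.12, 8.42, and 7.45 in WT controls. Here the doubted replicate 4 of the controls reached the range of treated livers. Its log2 change was 1.19 (SE 0.218, adjusted p = 0.00509) in Null livers and 1.70 (SE 0.340, adjusted p = 0.0066) in WT livers. The third probe set, 1420197_at, stayed close to the median of all values, between 5.29 and 6.02 on all 30 arrays, and was called in no comparison with all arrays (0.16 in Null and 0.20 in WT livers at 10 mg/kg).

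**Figure D2:**
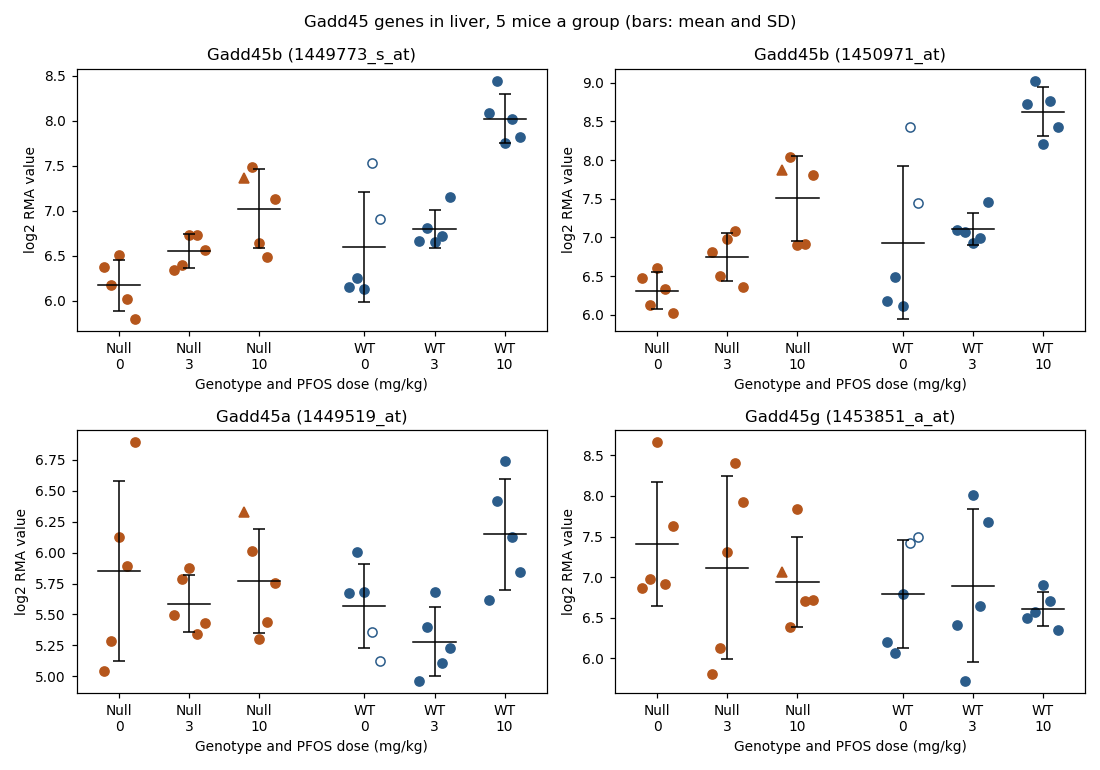
The log2 RMA value (y axis) of 2 Gadd45b probe sets, Gadd45a, and Gadd45g is plotted for each mouse by genotype and PFOS dose in mg/kg (x axis), with bars for the mean and SD. Open circles are the doubted WT 0 mg/kg replicates 4 and 5 and the triangle is Null 10 mg/kg replicate 1. All 5 WT 10 mg/kg arrays of probe set 1449773_s_at sit between 7.76 and 8.44, above the controls, while the groups of Gadd45g overlap.

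Without the doubted arrays the change of Gadd45b in WT livers at 10 mg/kg was 1.84 on 1449773_s_at (adjusted p = 2.09e-06) and 2.37 on 1450971_at (adjusted p = 7.22e-07). At 3 mg/kg it was then 0.62 (adjusted p = 0.0746) and 0.85 (adjusted p = 0.0315) on these probe sets, against 0.20 and 0.18 (adjusted p = 0.9998 each) with all arrays. By probe set 1450971_at, Gadd45b was then the 1 gene of the 9 called in WT livers at 3 mg/kg, where 0.765% of all genes were called higher without the doubted arrays. In Null livers at 3 mg/kg the changes were 0.38 (adjusted p = 0.288) and 0.44 (adjusted p = 0.315). WT livers at 10 mg/kg also exceeded those at 3 mg/kg, by 1.23 (adjusted p = 0.00876) and 1.52 (adjusted p = 0.0224), with no overlap on either probe set. In Null livers this step was 0.47 (adjusted p = 0.543) and 0.76 (adjusted p = 0.541).

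Difference in response between the genotypes at 10 mg/kg, Null minus WT, was -0.58 (95% confidence interval -1.21 to 0.04, adjusted p = 0.354) for Gadd45b, so a difference was not called with all arrays. Without the doubted arrays it was -0.996 (adjusted p = 0.027) on 1449773_s_at and -1.17 (adjusted p = 0.0296) on 1450971_at. Gadd45b was then the 1 gene of the 9 called, against 3.66% of all genes with a response called lower in Null than in WT livers. The call thus depended on 2 control arrays. With all arrays, 0 of the 9 genes differed in response at 3 mg/kg (2 at an unadjusted p under 0.05, Mdm2 and Ccnd1), against 0.222% of all genes higher and 0.971% lower. At 10 mg/kg 0 of the 9 differed (2 at an unadjusted p under 0.05, Cdkn1a and Mdm2), against 0.691% higher and 2.95% lower. The methods' t-test also called 0 at either dose.

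The other members of the family did not pass the limit against controls in the test of doses within each genotype, which has no term for the replicate number. Gadd45a has 1 probe set, with values around the overall median. In Null livers it ranged from 5.04 to 6.89 in controls alone, wider than in any other group, and gave differences from controls of -0.26 (3 mg/kg, adjusted p = 0.692) and -0.08 (10 mg/kg, adjusted p = 0.899). In WT livers it read 5.67, 6.01, 5.68, 5.36, and 5.12 at 0 mg/kg, then 4.96, 5.40, 5.68, 5.11, and 5.23 at 3 mg/kg, and 5.62, 6.41, 6.74, 6.12, and 5.84 at 10 mg/kg. WT livers at 10 mg/kg overlapped the controls, and their lowest array lay within the range at 3 mg/kg. Change in WT livers at 10 mg/kg was 0.58 (SE 0.204, adjusted p = 0.0782) against controls and 0.87 (adjusted p = 0.0271) against 3 mg/kg. In this fit the gene thus passed the limit only relative to the lower dose, where the mean was 0.29 below controls. Against controls it was 0.36 (adjusted p = 0.248) once the doubted arrays were left out. The call against 3 mg/kg was lost without WT 3 mg/kg replicate 1, 2, 4, or 5 or WT 10 mg/kg replicate 2, with an adjusted p of up to 0.0719, and by the methods' t-test once adjusted (0.0656).

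Gadd45g, the third stress sensor of the family, varied widely between mice of a group, with an SD of up to 1.12. Its probe set 1453851_a_at ranged from 5.81 to 8.41 in Null livers at 3 mg/kg and from 5.72 to 8.02 in WT livers at 3 mg/kg. At 10 mg/kg it read 7.06, 6.38, 7.84, 6.71, and 6.72 in Null livers, against 6.87, 6.98, 8.66, 6.92, and 7.63 in Null controls. The change was -0.47 with a 95% confidence interval of -1.45 to 0.52 in Null livers and -0.19 with an interval of -0.98 to 0.61 in WT livers (adjusted p = 0.603 and 0.787). These intervals include both a rise and a fall of 0.5 on the log2 scale.

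Cdkn1a was called in no comparison. Probe set 1421679_a_at read 6.57, 7.20, 6.73, 6.39, and 7.02 in Null livers at 10 mg/kg, against 7.29, 7.39, 7.02, 6.46, and 6.72 in Null controls. In WT livers it read 6.63, 7.54, 7.27, 7.16, and 7.31 at 0 mg/kg, then 8.21, 6.70, 6.78, 6.92, and 7.94 at 3 mg/kg, and 7.37, 8.82, 7.14, 8.23, and 7.73 at 10 mg/kg. The highest values of this probe set were all in PFOS-treated WT livers, replicates 2 and 4 at 10 mg/kg and replicate 1 at 3 mg/kg. Replicate 5 at both doses also exceeded the highest control, while the other 5 treated WT livers lay within the control range. The SD of this probe set was 0.68 in WT livers given 10 mg/kg and 0.71 in those given 3 mg/kg, against 0.34 in WT controls. Change at 10 mg/kg was -0.19 in Null livers (95% confidence interval -0.60 to 0.22, adjusted p = 0.606) and 0.68 in WT livers (interval -0.03 to 1.38, adjusted p = 0.194). Probe set 1424638_at gave -0.0041 in Null livers (adjusted p = 0.993) and 0.59 in WT livers (adjusted p = 0.217). The difference between genotypes at 10 mg/kg was -0.87 (95% confidence interval -1.70 to -0.04, adjusted p = 0.281) on the first probe set and -0.59 (adjusted p = 0.473) on the other.

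**Figure D3:**
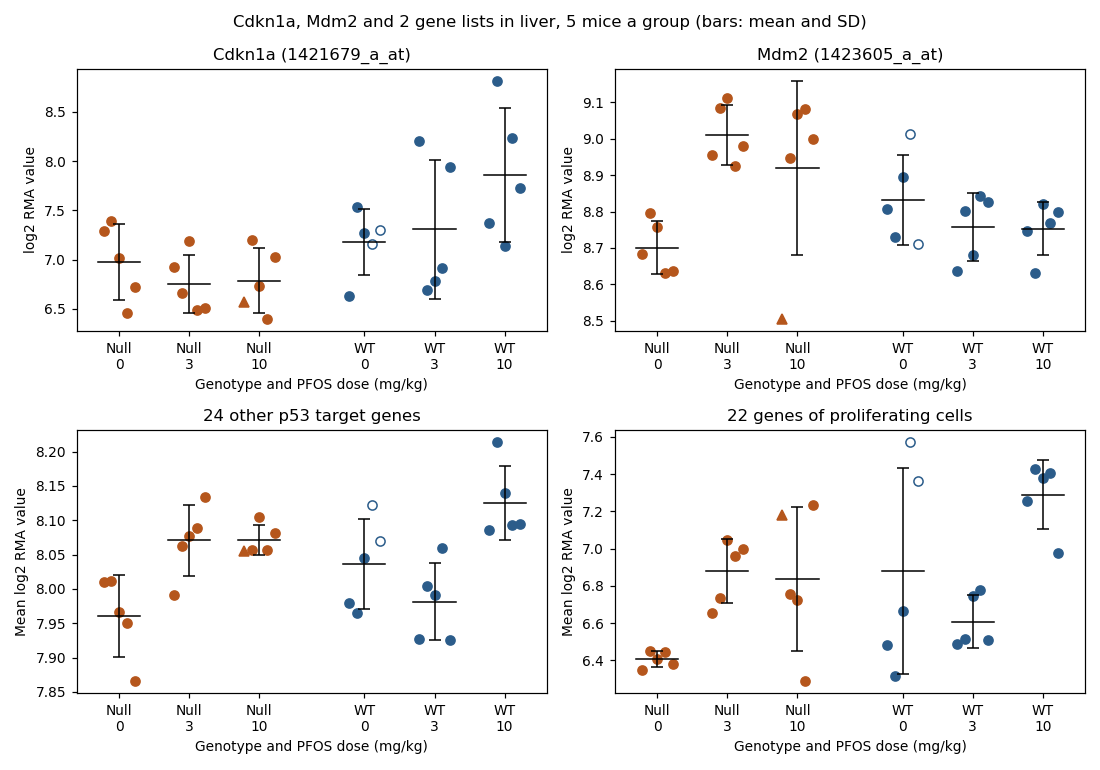
The upper panels plot the log2 RMA value (y axis) of Cdkn1a and Mdm2 for each mouse by genotype and PFOS dose in mg/kg (x axis), and the lower panels the mean log2 value per array of 24 other p53 target genes and 22 genes of proliferating cells. Bars are mean and SD, open circles the doubted WT 0 mg/kg replicates, and the triangle is Null 10 mg/kg replicate 1, the lowest Mdm2 value at 8.50.

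Mdm2 was tightly grouped, with an SD of 0.07 to 0.24 over the 6 groups on its main probe set. Probe set 1423605_a_at read 8.68, 8.80, 8.76, 8.63, and 8.64 in Null controls, then 8.95, 9.08, 9.11, 8.93, and 8.98 at 3 mg/kg, and 8.50, 8.95, 9.07, 9.08, and 9.00 at 10 mg/kg. Every Null liver at 3 mg/kg was above every Null control, and so was every Null liver at 10 mg/kg except replicate 1. In WT livers Mdm2 stayed between 8.63 and 9.01 over all 3 doses. Change in Null livers was 0.31 (SE 0.0967, adjusted p = 0.0863) at 3 mg/kg and 0.22 (adjusted p = 0.188) at 10 mg/kg, and in WT livers -0.07 (adjusted p = 0.9998) and -0.08 (adjusted p = 0.502). Differences between genotypes were 0.38 (adjusted p = 0.107) at 3 mg/kg and 0.30 (adjusted p = 0.186) at 10 mg/kg.

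Mdm2 calls depended on the fit. With all arrays kept, the change in Null livers at 3 mg/kg passed when all 30 arrays were fitted together (adjusted p = 0.0255) or only the groups compared (adjusted p = 0.0159). Array weights, which count arrays that scatter more for less, gave 0.34 (adjusted p = 0.00333) at 3 mg/kg and 0.30 (adjusted p = 0.0152) at 10 mg/kg in Null livers, and genotype differences of 0.42 (adjusted p = 0.00536) and 0.36 (adjusted p = 0.0200). Without Null 10 mg/kg replicate 1, the change of Mdm2 in Null livers was 0.31 (adjusted p = 0.00968) at 3 mg/kg and 0.32 (adjusted p = 0.00952) at 10 mg/kg. On the main probe set the difference between genotypes was then 0.38 (adjusted p = 0.0299) and 0.40 (adjusted p = 0.0116). In this fit 2 of the 9 genes were called higher in Null livers at 3 mg/kg (Mdm2 and Ccnd1) against 4.06% of all genes, and 3 at 10 mg/kg (Gadd45b, Mdm2, and Ccng1) against 4.46%. Mdm2 was the 1 member whose response differed between genotypes. In that comparison 0.551% of all genes (3 mg/kg) and 2.45% (10 mg/kg) had a response called higher in Null than in WT livers. The other kept Mdm2 probe set, 1427718_a_at, also separated Null livers at 3 mg/kg (8.48 to 8.64) from Null controls (8.16 to 8.47), with a change of 0.27 (adjusted p = 0.181 with all arrays). Its means were 8.28, 8.54, and 8.49 in Null livers at 0, 3, and 10 mg/kg, and 8.29, 8.37, and 8.21 in WT livers. As its WT mean also rose at 3 mg/kg, the genotypes differed less there than on the main probe set at that dose.

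Ccng1, which recruits a phosphatase to Mdm2, rose slightly in WT livers at 10 mg/kg by 1 of its 3 probe sets. In Null livers at 10 mg/kg probe set 1450016_at read 8.81, 9.37, 9.39, 9.53, and 9.50, against 9.14, 9.17, 8.98, 9.12, and 9.01 in Null controls. Null 10 mg/kg replicate 1 was again the low array, below every control, and the other 4 were above every control. The change was 0.24 (adjusted p = 0.238), and 0.36 (adjusted p = 0.011) without replicate 1. On 1420827_a_at and 1450017_at the same array read 7.38 and 7.35, against 8.40 to 8.44 and 8.28 to 8.40 in the other 4. In WT livers at 10 mg/kg probe set 1450016_at read 9.50, 9.40, 9.41, 9.44, and 9.46, against 9.07, 9.05, 9.15, 9.21, and 9.41 in WT controls, of which the doubted replicate 5 was the highest. The change was 0.26 (SE 0.0717, 1.20-fold, adjusted p = 0.0306), and 0.35 (adjusted p = 0.00242) without the doubted arrays. With all other arrays in the fit, the call was lost without WT 0 mg/kg replicate 1, 2, or 3, or WT 10 mg/kg replicate 1, 2, or 5, with an adjusted p of up to 0.0848. It was also lost without the filter (adjusted p = 0.0559), with quantile normalization repeated (0.0528), with only the groups compared (0.0654), and with all 30 arrays in 1 fit (0.0751). In the same WT comparison, 1420827_a_at and 1450017_at gave differences of 0.18 and 0.12 (adjusted p = 0.255 and 0.454).

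Btg2 had no call against controls. Probe set 1416250_at read 6.97, 7.02, 7.23, 7.02, and 7.05 in Null livers at 3 mg/kg and 7.29, 6.76, 7.14, 7.07, and 7.34 at 10 mg/kg, against 7.34, 7.11, 8.18, 7.30, and 7.15 in Null controls, where replicate 3 stood alone. Changes were -0.36 and -0.30 (adjusted p = 0.272 and 0.311). In WT livers the 3 mg/kg group was the lowest, with 6.90, 7.01, 6.88, 6.99, and 7.07, against 7.31, 7.29, 7.09, 7.25, and 7.12 at 10 mg/kg, and these doses did not overlap. The difference between them was 0.24 (SE 0.0973, adjusted p = 0.136), and it passed with only these groups in the fit (adjusted p = 0.0471) and with array weights (0.25, adjusted p = 0.046). WT livers at 3 mg/kg differed from controls by -0.21 (adjusted p = 0.916) and those at 10 mg/kg by 0.03 (adjusted p = 0.874). On the other probe set of Btg2, 1448272_at, WT livers at 3 mg/kg (6.57 to 6.65) and 10 mg/kg (6.62 to 7.07) did overlap. Its means in Null livers were 7.05, 6.80, and 6.89 at 0, 3, and 10 mg/kg.

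**Figure D4:**
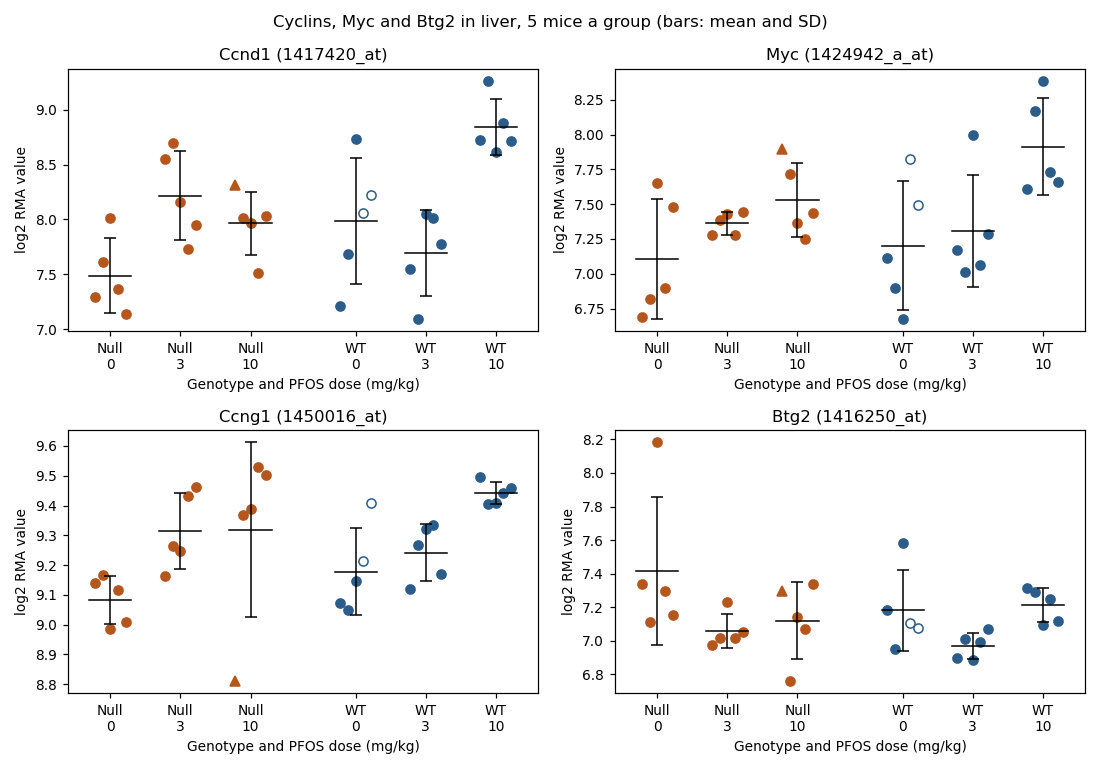
The log2 RMA value (y axis) of Ccnd1, Myc, Ccng1, and Btg2 is plotted for each mouse by genotype and PFOS dose in mg/kg (x axis), with bars for the mean and SD, open circles for the doubted WT 0 mg/kg replicates, and a triangle for Null 10 mg/kg replicate 1. WT 10 mg/kg livers reach 8.62 to 9.27 for Ccnd1, above all WT 3 mg/kg livers.

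Ccnd1 was called higher in Null livers at 3 mg/kg and in WT livers at 10 mg/kg. In Null livers probe set 1417420_at read 7.30, 7.62, 8.02, 7.36, and 7.14 at 0 mg/kg, then 8.55, 8.70, 8.16, 7.73, and 7.95 at 3 mg/kg, and 8.31, 8.01, 7.97, 7.51, and 8.03 at 10 mg/kg. On this probe set both treated groups overlapped the controls, of which replicate 3 was the highest. On 1417419_at Null livers at 3 mg/kg (6.74 to 7.53) lay above all Null controls (6.27 to 6.62), and on 1448698_at these groups overlapped. By probe set 1417420_at the change at 3 mg/kg was 0.73 (SE 0.196, adjusted p = 0.0473), at the edge of the limit, and was lost without 1 array in 11 of 15 such runs. Those runs left out any Null control except replicate 3, any Null 3 mg/kg array except replicate 4, or replicate 2, 3, or 5 at 10 mg/kg, with adjusted p up to 0.127. At 10 mg/kg it was 0.48 (adjusted p = 0.154). In WT livers at 3 mg/kg the change was -0.29 (adjusted p = 0.9998), and the difference between genotypes at this dose, Null minus WT, was 1.02 (95% confidence interval 0.35 to 1.69, adjusted p = 0.123).

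In WT livers the same probe set of Ccnd1 read 7.21, 7.68, 8.73, 8.06, and 8.22 at 0 mg/kg, then 7.55, 7.09, 8.05, 8.01, and 7.78 at 3 mg/kg, and 8.72, 9.27, 8.62, 8.88, and 8.71 at 10 mg/kg. All livers at 10 mg/kg were above all livers at 3 mg/kg, whereas control replicate 3 reached the treated range. The change was 0.86 (SE 0.240, 1.81-fold, adjusted p = 0.0347) against controls and 1.14 (adjusted p = 0.0173) against 3 mg/kg. With the doubted arrays left out the change against controls was 0.96 (adjusted p = 0.0256). With the doubted arrays kept, the call against controls was lost without WT 0 mg/kg replicate 1 or 2, or WT 10 mg/kg replicate 1, 2, 4, or 5, with an adjusted p of up to 0.0873. It was also lost with only the groups compared (adjusted p = 0.0629) and by the methods' t-test, adjusted (0.0736) or at the unadjusted limit of the study (unadjusted p = 0.00816), and that test also lost the call against 3 mg/kg once adjusted (0.0517). The other 2 probe sets, 1448698_at and 1417419_at, gave 0.59 (adjusted p = 0.0457) and 0.65 (adjusted p = 0.0659).

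Myc did not reach the limit in either genotype with all arrays kept and each genotype fitted on its own. Its probe set, 1424942_a_at, read 7.89, 7.71, 7.36, 7.25, and 7.44 in Null livers at 10 mg/kg, against 6.69, 6.82, 7.66, 6.90, and 7.48 in Null controls, a change of 0.42 (adjusted p = 0.143), which was 0.56 (adjusted p = 0.0495) without Null 0 mg/kg replicate 3. In WT livers it read 7.61, 8.17, 8.39, 7.73, and 7.66 at 10 mg/kg, against 7.11, 6.90, 6.67, 7.83, and 7.50 in WT controls, where the doubted replicates 4 and 5 were the high arrays. The change was 0.71 (SE 0.229, adjusted p = 0.0576), and 1.02 (adjusted p = 0.00503) without the doubted arrays. It also passed without WT 0 mg/kg replicate 4 alone (adjusted p = 0.0207), replicate 5 alone (adjusted p = 0.0396), or WT 3 mg/kg replicate 3 (adjusted p = 0.0409), and with all 30 arrays in 1 fit (adjusted p = 0.0292). With both doubted arrays left out, 4 of the 9 genes, Gadd45b, Ccnd1, Ccng1, and Myc, were called higher in WT livers at 10 mg/kg, against 14.2% of all genes. The difference between genotypes at 10 mg/kg was -0.29 (95% confidence interval -0.90 to 0.33, adjusted p = 0.704).

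**Figure D5:**
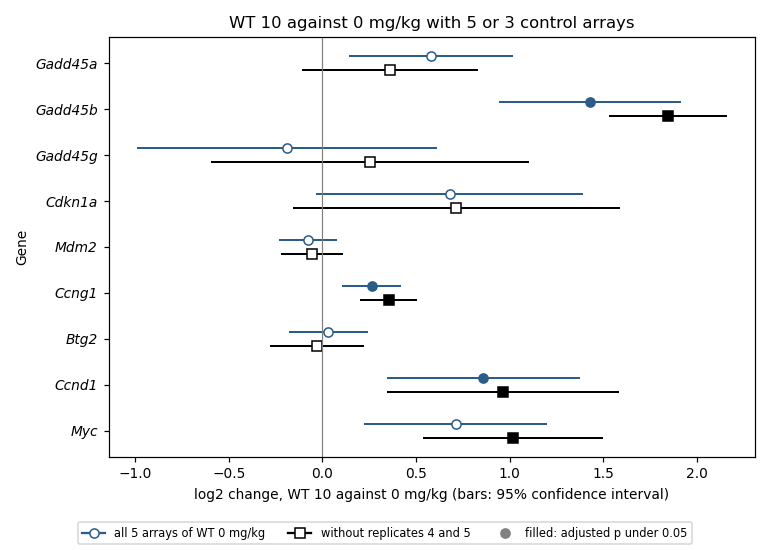
The log2 change of the 9 genes in WT livers at 10 against 0 mg/kg (x axis, with 95% confidence intervals) is plotted by gene (y axis) with all 5 control arrays (circles) and without the doubted replicates 4 and 5 (squares), filled where the adjusted p was under 0.05. Gadd45b moves to 1.84 from 1.43, Myc moves to 1.02 from 0.71 and passes the limit, and Gadd45a moves to 0.36 from 0.58.

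Between untreated genotypes, 0 of the 9 genes were called in Null against WT livers at 0 mg/kg by limma (1 at an unadjusted p under 0.05, Ccnd1, and 0 by the methods' t-test), where 0.921% of all genes were called higher and 0.65% lower. Ccnd1 differed by -0.50 (adjusted p = 0.300) and Gadd45b by -0.42 (adjusted p = 0.357). These values were -0.39 and -0.01 (adjusted p = 0.567 and 0.994) with the doubted arrays left out.

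Other p53 targets were measured beside these genes. Of 24, 4 were called higher in WT livers at 10 mg/kg and none lower, with a median change of 0.03. Among all genes, 7.63% were called higher and 5.83% lower in this comparison. The 4 p53 targets are named next. They were Perp, a membrane protein of p53-dependent cell death (0.44, adjusted p = 0.00852), the death receptor gene Fas (0.60, adjusted p = 0.0118), Ckap2, a spindle protein of dividing cells (0.73, adjusted p = 0.0323), and Phlda3, an inhibitor of Akt (0.23, adjusted p = 0.0455). In Null livers Ckap2 was higher at 3 mg/kg (0.62, adjusted p = 0.0365) and 10 mg/kg (0.65, adjusted p = 0.0205). At 3 mg/kg Sesn1 was also higher (0.34, adjusted p = 0.0324) and Dcxr lower (-0.38, adjusted p = 0.0264), and at 10 mg/kg Sesn2 was higher (0.32, adjusted p = 0.0127). Sesn1 and Sesn2 encode sestrins, stress proteins that restrain mTOR. In Null livers the median change of the list was 0.12 (3 mg/kg) and 0.09 (10 mg/kg). Of 11 genes of p53 and its control, 0 were called by limma against controls with all arrays, with 3 and 2 at an unadjusted p under 0.05 in Null livers (3 and 10 mg/kg) and 2 and 4 in WT livers. Without the doubted arrays 2 of them fell in WT livers at 10 mg/kg, Mdm4, an inhibitor of p53 (by 0.40, adjusted p = 0.0112), and Ep300, an acetyltransferase that acts on p53 (by 0.49, adjusted p = 0.0025). In that fit 15.6% of all genes were called lower, so these falls are near the background.

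Partners of Ccnd1 in the step from G1 to S phase moved in both directions in WT livers at 10 mg/kg, where 3 of 19 measured rose and 3 fell. The shares of all genes there were 7.63% higher and 5.83% lower. Ccnd3, which encodes another D cyclin, rose by 0.41 (adjusted p = 0.0151), Cdk4, the kinase partner of D cyclins, rose by 0.41 (adjusted p = 0.026), and Ccnh, of the CDK-activating kinase, fell by 0.59 (adjusted p = 0.00111). Tfdp2, a partner of E2F factors, fell by 0.38 (adjusted p = 0.00574). In Null livers E2f3 rose by 0.58 (3 mg/kg, adjusted p = 0.0174) and 0.68 (10 mg/kg, adjusted p = 0.00493), and Tfdp1 by 0.29 and 0.31 (adjusted p = 0.0344 and 0.0174). E2f6 was the third gene to rise there at 10 mg/kg (0.29, adjusted p = 0.0438). Among the 4 measured CDK inhibitors other than p21, Cdkn1b, which encodes p27, fell in Null livers by 0.61 (3 mg/kg, adjusted p = 0.0329) and by 0.90 (10 mg/kg, adjusted p = 0.0027). Its response differed between genotypes at 10 mg/kg by -0.68 (adjusted p = 0.0421), a call that was lost without the doubted arrays (-0.55, adjusted p = 0.106).

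Of 14 partners of Myc, 3 fell in WT livers at 10 mg/kg with all arrays, where 5.83% of all genes were called lower and 7.63% higher. They were Fbxw7, the ligase subunit that marks Myc for degradation (by 0.33, adjusted p = 0.0371), Mxd1, an antagonist of Myc (by 0.31, adjusted p = 0.0397), and Mlxipl (by 0.62, adjusted p = 0.0432). Of 28 Myc targets, 3 rose and 1 fell in WT livers at 10 mg/kg, among them Shmt2 (0.23, adjusted p = 0.0301) and Hspe1 (0.47, adjusted p = 0.0392). With the doubted arrays left out, 9 rose and 2 fell, against 14.2% of all genes called higher and 15.6% lower. In Null livers at 10 mg/kg Nolc1 (0.41, adjusted p = 0.0223) and Odc1 (0.51, adjusted p = 0.0243) rose, and Shmt1 fell by 0.65 (adjusted p = 0.00125).

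Other stress and growth relatives gave calls in both directions. With all arrays, 2.05% of all genes were called higher and 3.2% lower in Null livers at 3 mg/kg, and 4.15% and 5.08% at 10 mg/kg. In WT livers these shares were 0.239% and 0.00823% at 3 mg/kg, and 7.63% and 5.83% at 10 mg/kg. Among 20 measured immediate early genes, Jun, a component of AP-1, rose by 1.48 in WT livers at 10 mg/kg (adjusted p = 0.000723), and Jund rose by 0.29 (adjusted p = 0.0402, and 0.0906 without the doubted arrays). In Null livers Fosl2 rose by 0.39 (3 mg/kg, adjusted p = 0.017) and 0.45 (10 mg/kg, adjusted p = 0.00562) and Klf6 fell by 0.66 and 0.49 (adjusted p = 0.0095 and 0.0269). Tob1, a relative of Btg2, rose by 0.58 and 0.61 in Null livers (adjusted p = 0.041 and 0.022). Of 11 measured partners of the Gadd45 proteins, which are kinases and cell cycle proteins, 0 were called by limma against controls with all arrays. At an unadjusted p under 0.05 there were 5 in Null livers at either dose, and 0 and 4 in WT livers (3 and 10 mg/kg). Without the doubted arrays 2 rose (Pcna and Cdk1) and 1 fell (Map3k5) in WT livers at 10 mg/kg. In that fit 14.2% of all genes were called higher and 15.6% lower. Pcna and Cdk1 are also on the list of proliferating cells below, so they are not separate evidence.

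Markers of dividing cells and of CAR activity are given beside the 9 genes, and their part in these results was not tested. Shares of all genes called higher were 2.05% and 4.15% in Null livers at 3 and 10 mg/kg. In WT livers at 10 mg/kg the share was 7.63%, and 14.2% without the doubted arrays. Of 22 measured genes of proliferating cells, 8 rose in Null livers given 3 mg/kg and 7 in those given 10 mg/kg, with Birc5 up by 1.33 and 1.22 (adjusted p = 0.00359 and 0.00361) and Ccnb2 by 1.42 and 1.24 (adjusted p = 0.00957 and 0.0123). In WT livers at 10 mg/kg only Cdc20 was called (1.35, adjusted p = 0.0233) with all arrays, and 17 of 22 without the doubted arrays, in which the mean of the list was 7.57 and 7.36, against 6.32 to 6.67 in the other WT controls. The mean was 6.98 to 7.43 in WT livers at 10 mg/kg, 6.49 to 6.78 in WT livers at 3 mg/kg, 6.66 to 7.05 and 6.29 to 7.23 in Null livers at 3 and 10 mg/kg, and 6.35 to 6.45 in Null controls. Of 9 measured CAR targets, 6 rose in Null livers at 10 mg/kg, Cyp2b10 by 4.44 (adjusted p = 3.9e-05), against 1 in WT livers with all arrays, Abcc4, and 9 without the doubted arrays. Within Null livers at 10 mg/kg, Cyp2b10 read 13.04, 13.37, 12.02, 12.03, and 12.98, and replicates 3 and 4, low here, were also the low arrays for Gadd45b. In WT livers at 3 mg/kg Cyp2b10 read 11.60 to 12.32, against 8.11 to 8.43 in WT control replicates 1 to 3. Without the doubted arrays Ccnd1 and Myc changed there by -0.18 and 0.41 (adjusted p = 0.887 and 0.529). Their changes from all WT controls were -0.29 and 0.10. Any link of these genes to Cyp2b10 was not tested. Of 9 measured PPARα targets, 3 rose in Null livers at 10 mg/kg, with Cyp4a31 up by 1.32 (adjusted p = 0.0165), and 8 in WT livers, with Cyp4a31 up by 4.16 (adjusted p = 7.2e-10).

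Markers of other liver cells were measured beside these genes. At 10 mg/kg, 4.15% of all genes were called higher and 5.08% lower in Null livers, and 7.63% higher and 5.83% lower in WT livers. Without the doubted arrays the WT share called lower was 15.6%. Hepatocyte markers Cps1, Hnf4a, and Tat fell by 0.29, 0.42, and 0.46 in WT livers at 10 mg/kg (3 of 9 measured, adjusted p = 0.0106, 0.0343, and 0.0426, the last 0.0939 without the doubted arrays), with a mean of the list of 13.08 to 13.22, against 13.32 to 13.46 in WT controls. Of 13 Kupffer cell and macrophage markers, 3 fell in Null livers at 10 mg/kg, and the mean was 8.38 to 9.09 there, against 8.81 to 9.30 in Null controls. Of 4 measured neutrophil markers, S100a8, a subunit of calprotectin, rose by 3.11 in Null livers at 10 mg/kg (adjusted p = 0.0333) and by 3.40 in WT livers at 10 against 3 mg/kg (adjusted p = 0.0498). Against WT controls its change at 10 mg/kg was 2.39 (adjusted p = 0.114), and 4.43 (adjusted p = 1.29e-05) without the doubted arrays. The mean of this list was 5.69 to 6.85 in Null livers at 10 mg/kg, against 5.39 to 5.92 in Null controls, and 6.71 to 6.89 in WT livers at 10 mg/kg, against 5.30 to 7.08 in WT controls. Both groups given 10 mg/kg thus had the highest group means of this list. S100a9, Ltf, and Elane were not called, with changes of -0.09, 0.03, and -0.07 in Null livers at 10 mg/kg. In WT livers at this dose they changed by 0.26, -0.03, and -0.03, so the list does not move as a whole. Of 10 endothelial markers, Lyve1, a hyaluronan receptor, rose by 1.39 (adjusted p = 0.0177) and Pecam1 by 0.26 (adjusted p = 0.0487) in Null livers at 10 mg/kg. The mean of the list was 7.88 to 8.39 there, against 7.93 to 8.11 in Null controls. The others were not called and went both ways. Stab1, Emcn, and Eng changed by 0.19, 0.06, and 0.06. Clec4g, Kdr, Tek, Stab2, and Cdh5 changed by -0.27, -0.19, -0.13, -0.10, and -0.09. In WT livers 0 passed by limma with all arrays against controls (0 and 2 at an unadjusted p under 0.05 given 3 and 10 mg/kg), and 4 fell at 10 mg/kg without the doubted arrays (Kdr, Stab2, Clec4g, and Eng). Of 9 stellate cell and fibroblast markers, Dcn, which encodes the matrix proteoglycan decorin, fell by 0.66 (adjusted p = 0.00491) in WT livers at 10 mg/kg, as did Lrat and Reln without the doubted arrays, with a mean of 7.81 to 8.07, against 7.93 to 8.76 in WT controls. Lymphocyte and cholangiocyte lists held 7 and 4 measured genes at low signal, with means of 5.82 to 6.93 and 6.05 to 6.37 over all arrays. In WT controls the lymphocyte mean reached 6.93 and the Kupffer cell mean 9.56, both in replicate 3, which was also the high control of Ccnd1. Their part in the results was not tested.

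Genes most like the called members over the 30 arrays are given as a description, since all arrays share the groups and doses. For Gadd45b they were Prune1 (Pearson r = 0.93), Srxn1, the antioxidant enzyme sulfiredoxin (0.91), and Acaca, the acetyl-CoA carboxylase of fatty acid synthesis (0.90). Values ran opposite for Igfbp4 (-0.92), a binding protein of insulin-like growth factors, and for Dlg1 (-0.90). For Ccnd1 the most alike were Rhbdf1 (0.85), Csf2rb (0.84), and Ywhah (0.83), and the least alike Rnf146 and Setdb2 (-0.78 each). For Ccng1 they were C1galt1 (0.79), Katnbl1 (0.78), and Pus10 (0.77), and at the other end Aspdh (-0.79) and Rfx1 (-0.78).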

How the data were processed

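Liver RNA of 30 mice was hybridized to 1 array each. Per the labels, RMA was used for background correction, quantile normalization, and summary, and the deposited table gives 45101 probe sets on the log2 scale. Since labeling and hybridization were done in 1 block, there was no batch to test. After 64 control probe sets were left out, probe sets were named through a platform annotation table (34958 with 1 gene, 932 with several, and 9211 with none), and symbols were updated by Entrez number for 34754. A gene took its kept probe set with the smallest p among the 4 dose effects against 0 mg/kg. The number of arrays limits the precision.

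Tests used limma 3.58.1 in R 4.3.3, with 15 arrays of a genotype in dose comparisons and 30 arrays in the genotype comparisons. The methods' t-test is the unmoderated test with the unadjusted limit of the study (0.0025). The 9 genes and the gene lists were chosen with earlier results of these data known. Named genes were the 9, up to 4 called genes per list and comparison by smallest p, and for each called member the 3 most and 2 least correlated genes. Replicates share only a number, so no pairing was used. Alternatives were other filters, probe sets, normalizations, spread models, sets of groups, a replicate block, and arrays left out. Counts of the 9 genes under an alternative chose probe sets anew by the same rule, whereas single values and list counts without arrays kept each gene's probe set. Figures used matplotlib 3.10.9.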

Additional observations from a re-analysis of the deposited data

Results flagged for a closer look

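In 7 of 108 combinations of probe set and group (6.48%), 1 array lay apart from the other 4 by more than Dixon's 95% limit, and chance gives about 1 in 20. Of these, 4 were Null 10 mg/kg replicate 1, which read low. On Ccng1 probe sets 1420827_a_at, 1450016_at, and 1450017_at it read 7.38, 8.81, and 7.35, against 8.40 to 8.44, 9.37 to 9.53, and 8.28 to 8.40 in the other 4 arrays, and on Mdm2 probe set 1423605_a_at it read 8.50, against 8.95 to 9.08. Probe sets of a gene share their RNA, so these are not separate events. Btg2 read 8.18 in Null 0 mg/kg replicate 3, against 7.11 to 7.34 in the others. Myc read 7.999 in WT 3 mg/kg replicate 3, against 7.01 to 7.28. Gadd45b on the weak probe set 1420197_at read 5.29 in Null 0 mg/kg replicate 4, against 5.70 to 5.78.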

How the results depend on the processing

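Counts of the 9 genes called against 0 mg/kg in Null livers at 3 mg/kg (1) fell to 0 without the filter, with quantile normalization repeated, and by the methods' t-test, adjusted or at the study's unadjusted limit, and were 2 with array weights or with only the groups compared. Array weights gave 3 in Null livers at 10 mg/kg and 1 for the genotype difference at each dose. The count in WT livers at 10 mg/kg (3) was 1 with only the groups compared, and 2 without the filter, with quantile normalization repeated, with a trended robust spread, and by the methods' t-test, adjusted or not. For 10 against 3 mg/kg in WT livers (3) it was 1 by the adjusted methods' t-test, and 4 with array weights, with only the groups compared, and without the doubted arrays, where Ccng1 was added (0.20, adjusted p = 0.0429). With the doubted arrays left out the counts were also 1 in WT livers at 3 mg/kg and 1 for the genotype difference at the high dose. Leaving out each array in turn gave 0 to 2 (Null, 3 mg/kg), 1 to 3 (Null, 10 mg/kg), 1 to 4 (WT, 10 mg/kg), 2 to 3 (WT, 10 against 3 mg/kg), and 0 to 1 for either difference between genotypes. The high Null counts came without Null 10 mg/kg replicate 1, and the count of 4 without WT 0 mg/kg replicate 4 or 5 or WT 3 mg/kg replicate 3. The count in WT livers at 10 mg/kg was 1 without WT 0 mg/kg replicate 1 or 2, or WT 10 mg/kg replicate 1, 2, or 5. Gadd45b was called in all 15 such runs in each genotype at 10 mg/kg, and Ccnd1 and Ccng1 in 9 of 15 each in WT livers. No direction of a called change was reversed. Same-numbered arrays did not deviate together (correlations -0.24 to 0.36), and with a replicate block the adjusted p of Ccng1 in WT livers at 10 mg/kg was 0.0522 and that of Gadd45a 0.0283. Low signal limits Gadd45a and the third Gadd45b probe set, which lie near the overall median.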
